A study of Mus musculus with 4 samples.

Results

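The extracellular metalloproteases and their inhibitors were examined in primary myoblasts of WT and Tet2 KO mice. The genes were all those of the deposited expression table whose symbols begin with Mmp or Adam followed by a number, with Adamts, or with Timp followed by a number. This rule took 84 of 24445 genes and used no measured value. They comprised 23 matrix metalloproteases (MMPs), 33 ADAMs, 19 ADAMTS proteases, 5 ADAMTS-like proteins and 4 TIMPs. Of the 84, 34 had a mean of at least 1 FPKM (fragments per kilobase of transcript, scaled to the number of mapped fragments) over both groups and are called measured here. The other 50 lay under 1 FPKM, 33 of them under 0.1 FPKM, and Adam18 and Mmp7 were listed at 0 in both groups.

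Myoblasts came from hindlimb muscle of C57BL/6 mice, either WT or Tet2 KO, with 2 libraries in each group. In the Tet2 KO animals exon 3 of Tet2, the gene of an enzyme that oxidises methylated cytosine in DNA, was deleted by homologous recombination. Mice were 8 to 10 weeks of age where nothing else is stated. Satellite cells, the stem cells of muscle, were sorted as CD34+ Integrin a7+ cells that lacked CD45, CD11b, CD31 and Sca1, and both groups were cultured on Type I collagen for at least 3 days until they were MyoD+. The table holds 1 value per gene and group, so the spread between the libraries of a group could not be seen, and no test between genotypes was run here. All differences below are descriptions without a replicate check, and where a pair of values is given the Tet2 KO value stands first. Tet2 itself had 5.79 FPKM in Tet2 KO against 6.64 in WT. A value summed over the whole gene still counts the remaining exons, so it does not check the genotype labels.

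MMPs are zinc-dependent proteases that are secreted or anchored to the cell surface and cut collagens and other matrix proteins. ADAMs mostly release the outer parts of membrane proteins, and ADAMTS proteases process procollagens and proteoglycans. TIMPs bind the active site of these proteases and block it. In muscle, remodelling of the matrix around fibres accompanies injury and repair. Some MMPs are known chiefly from leukocytes: Mmp8 is the collagenase of neutrophil granules, Mmp9 is a gelatinase of neutrophils and macrophages, and Mmp12 is the elastase of macrophages. Others, such as Mmp2, Mmp3, Mmp13 and Mmp14, are known from fibroblasts and other mesenchymal cells.

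The results below turn on a few MMP genes, and their proximal promoters are shown so that the leukocyte-type and mesenchymal genes can be compared. Each sequence is the 250 bases before the start site given by RefSeq, on the plus strand of GRCm38.p6. Capitals mark matches to either of 2 words searched on both strands, TGANTCA (the AP-1 word, which reads the same on both strands) and GAGGAAGT (a PU.1-type word, seen as ACTTCCTC on the opposite strand). AP-1 factors are dimers of Fos and Jun proteins, and PU.1 is a transcription factor of myeloid and B cells. No match of one word overlapped a match of the other in the windows shown. Mmp8 (chr9:7558179-7558428) and Mmp12 (chr9:7344147-7344396, the first of 2 listed starts) are the leukocyte-type genes with an entry. Mmp13 (chr9:7272264-7272513), Mmp3 (chr9:7445572-7445821) and Mmp10 (chr9:7502092-7502341) are mesenchymal genes of the same gene cluster. Mmp14 (chr14:54431348-54431597) is the mesenchymal MMP with the highest level in these cells.
Mmp8: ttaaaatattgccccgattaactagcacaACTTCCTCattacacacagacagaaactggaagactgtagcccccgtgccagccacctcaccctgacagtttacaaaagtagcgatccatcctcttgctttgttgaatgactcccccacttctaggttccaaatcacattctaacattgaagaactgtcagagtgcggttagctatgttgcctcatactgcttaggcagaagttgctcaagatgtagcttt
Mmp12: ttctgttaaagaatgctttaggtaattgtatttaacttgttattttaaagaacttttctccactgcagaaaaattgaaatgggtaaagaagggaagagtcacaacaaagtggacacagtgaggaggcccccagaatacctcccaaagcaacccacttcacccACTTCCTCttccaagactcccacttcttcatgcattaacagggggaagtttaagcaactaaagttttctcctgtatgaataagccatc
Mmp13: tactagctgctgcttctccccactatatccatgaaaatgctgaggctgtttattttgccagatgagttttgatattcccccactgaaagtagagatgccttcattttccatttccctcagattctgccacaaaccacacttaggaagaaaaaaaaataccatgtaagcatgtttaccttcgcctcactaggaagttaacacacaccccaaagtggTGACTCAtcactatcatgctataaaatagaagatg
Mmp3: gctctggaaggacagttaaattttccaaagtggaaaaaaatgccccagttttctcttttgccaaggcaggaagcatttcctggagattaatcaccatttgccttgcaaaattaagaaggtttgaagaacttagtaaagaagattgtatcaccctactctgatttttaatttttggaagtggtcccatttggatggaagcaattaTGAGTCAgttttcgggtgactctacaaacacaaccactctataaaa
Mmp10: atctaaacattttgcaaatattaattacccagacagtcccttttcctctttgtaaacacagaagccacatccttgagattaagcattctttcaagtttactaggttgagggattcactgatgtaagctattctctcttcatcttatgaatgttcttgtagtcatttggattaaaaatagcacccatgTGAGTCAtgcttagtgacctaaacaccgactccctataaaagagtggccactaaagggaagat
Mmp14: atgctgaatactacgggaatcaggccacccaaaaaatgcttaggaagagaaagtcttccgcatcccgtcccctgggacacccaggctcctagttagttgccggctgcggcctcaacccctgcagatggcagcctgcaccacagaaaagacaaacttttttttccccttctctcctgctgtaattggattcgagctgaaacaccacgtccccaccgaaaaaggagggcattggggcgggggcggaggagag

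The PU.1-type word began 221 bases before the start of Mmp8 and 88 bases before the shown start of Mmp12. The AP-1 word began 35 bases before the start of Mmp13, 46 before that of Mmp3 and 63 before that of Mmp10. Neither word was found in the Mmp14 window. RefSeq promoters were matched for 53 of the 84 genes, and Mmp9 and Mmp2 were not among them. The AP-1 word occurred in 8 of the 10 MMP genes clustered on chromosome 9 (80%), in 4 of the 43 matched genes elsewhere (9.30%) and in 7.82% of all 27025 genes with a promoter. In Mmp12 it was found only at the second listed start. The PU.1-type word occurred in 4 of the 53 matched genes (7.55%), which were Mmp7, Mmp8, Mmp12 and Adam29, against 2.79% of all genes. Of the 6 matched mesenchymal MMPs, 3 held the AP-1 word and 0 the PU.1-type word. The clustered genes are related copies, so their promoters are not independent of each other. A word match is not evidence that a factor binds there.

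To compare the groups, log2((Tet2 KO FPKM + 1) / (WT FPKM + 1)) was computed, and a gene was called 2-fold higher or lower where this reached 1 or -1. The added 1 shrinks the ratio of genes with little signal. Among the 34 measured genes, 6 were 2-fold higher in Tet2 KO (17.6%), namely Mmp8, Mmp12, Mmp13, Mmp3, Mmp10 and Adam8. Over all 11692 genes with a mean of at least 1 FPKM, 2.08% were 2-fold higher. A single measured member, Adamtsl2, was 2-fold lower (2.94%), against 1.21% of all genes. Mmp10 and Adamtsl2 were each under 1 FPKM in the lower group and passed the filter through the higher one. The median log2 ratio of the 34 was 0.11, with a range from -1.08 to 1.94, and that of all genes was -0.00. Of the 34, 24 had a log2 ratio between -0.5 and 0.5. Genes of low level scatter more. At a mean of 1 to 5 FPKM, where Mmp13, Mmp3 and Mmp10 lie, 4.76% of all genes were 2-fold higher, and at 5 to 20 FPKM, where Mmp8, Mmp12 and Adam8 lie, 1.86% were.

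**Figure D1:**
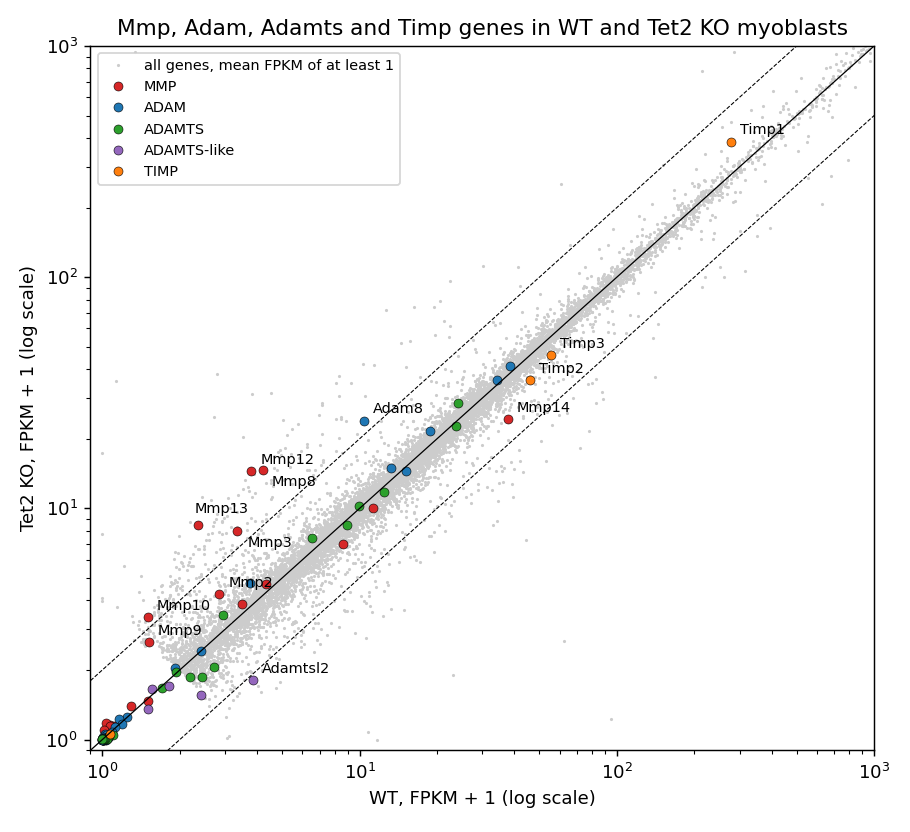
Tet2 KO against WT values of every gene, as FPKM + 1 on log axes, with the 84 genes coloured by family and all other genes of at least 1 FPKM in grey. The solid line marks equal values and the dashed lines 2-fold differences on this scale; Mmp8, Mmp12, Mmp13, Mmp3, Mmp10 and Adam8 lie above the upper line and Adamtsl2 below the lower one.

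The depth behind these values was estimated from the smallest steps between low FPKM values, which put about 43900000 fragments behind a Tet2 KO value and 44800000 behind a WT value. The fragments of a gene were then estimated from its FPKM and its longest transcript, and 95% exact (Clopper-Pearson) intervals of the fold were derived. They cover counting error only and not the spread between cultures. By counting error alone, the fold lay above 1 for 17 of the 34 genes, below 1 for 12, and included 1 for 5. The same count was not made over all genes, so it does not set these genes apart from others.

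**Figure D2:**
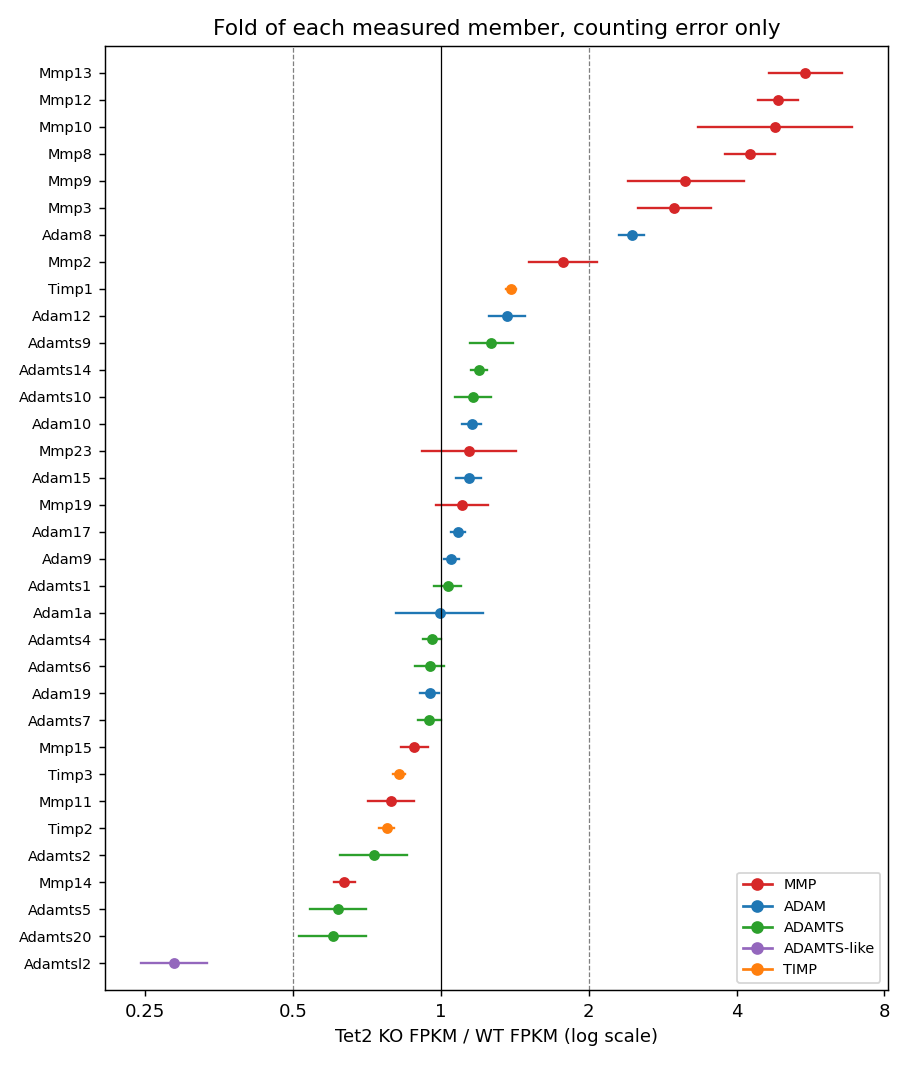
Fold of the Tet2 KO over the WT FPKM, on a log axis, for the 34 measured genes in order of size. Points are the deposited values and bars the 95% intervals from estimated fragment counts, which hold no replicate error; the folds run from 0.286 for Adamtsl2 to 5.52 for Mmp13.

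The leukocyte-type MMPs were higher in Tet2 KO. Mmp8, on chromosome 9 from 7558429 to 7568486 on the plus strand of mm9, had 13.6 FPKM in Tet2 KO against 3.20 in WT. This is a fold of 4.26 (counting interval 3.79 to 4.80), from about 1469 and 352 fragments. Mmp12, on chromosome 9 from 7344397 to 7360461 on the plus strand, had 13.6 FPKM in Tet2 KO against 2.79 in WT, a fold of 4.86 (counting interval 4.43 to 5.33). Mmp9, on chromosome 2 from 164773719 to 164781350 on the plus strand, stood lower, at 1.64 FPKM in Tet2 KO against 0.521 in WT. It reached a mean of 1 FPKM only through its Tet2 KO value, so its place among the measured genes is partly set by the filter. Its fold was 3.15 (counting interval 2.41 to 4.14), but its log2 ratio with 1 added was 0.80, so it was not called. It was called with 0.1 added, at a log2 ratio of 1.49. The summed level of the 3 genes was 28.8 FPKM in Tet2 KO against 6.51 in WT, a ratio of 4.43.

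Of the other members known from leukocytes, Adam8 alone was measured. Adam8, a surface protease of granulocytes and macrophages that is also found in other cells, was the most abundant of the genes called higher. Its locus is on the minus strand of chromosome 7, between 147164831 and 147178461, and it had 23.0 FPKM in Tet2 KO against 9.40 in WT, a fold of 2.45. Mmp25, a membrane-anchored MMP of neutrophils, was near 0 in both groups, at 0.0363 FPKM in Tet2 KO against 0.0367 in WT. Adam28, known from lymphocytes, was at 0.00729 FPKM in Tet2 KO against 0.00475 in WT. With an estimated 5 and 6 fragments for Mmp25 and 1 in each group for Adam28, no difference of either gene was detectable at this depth.

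Markers of leukocytes were higher in Tet2 KO too. The marker lists were chosen with earlier results of these data known, so they are not independent of them. Over all genes with a mean of at least 1 FPKM, 2.08% were 2-fold higher. Of 12 leukocyte markers, all had at least 1 FPKM on average and 9 were 2-fold higher, with a median log2 ratio of 1.76. Their summed level was 499 FPKM in Tet2 KO against 126 in WT, and none was at 0. Ptprc, the gene of CD45, had 5.67 FPKM in Tet2 KO against 1.36 in WT. Itgam, the gene of CD11b, had 10.05 FPKM in Tet2 KO against 2.09 in WT. The sort had selected cells without these proteins on their surface, yet both transcripts were measured in both groups. Of 12 neutrophil markers, 10 were measured and were 2-fold higher, with summed levels of 2048 and 576 FPKM. Of 8 macrophage markers, 7 were measured and were 2-fold higher, 1 of which, Adgre1, was measured only through its Tet2 KO value (3.67 FPKM against 0.712 in WT), with summed levels of 70.9 and 16.7 FPKM. The summed marker levels were thus 3.95, 3.56 and 4.24 times as high in Tet2 KO, beside 4.43 for the leukocyte-type MMPs. Their part in the results for the metalloproteases was not tested. In bulk RNA, more cells of a type and more RNA per cell cannot be told apart.

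Set against the summed levels of these markers, the leukocyte-type MMPs differed less. Mmp8 amounted to 0.667% of the summed neutrophil markers in Tet2 KO and to 0.556% in WT. Most of that sum was S100a8, with 941 and 285 FPKM, and S100a9, with 781 and 213 FPKM. The folds of the measured neutrophil markers ran from 3.14 for Camp to 6.07 for Ltf, beside 4.26 for Mmp8. Mmp8, Mmp9 and Mmp12 together amounted to 5.77% of the summed leukocyte markers in Tet2 KO and 5.15% in WT. Lyz2 alone gave 253 and 59.5 FPKM of these sums. None of the 6 myoblast markers reached 2-fold, and all 6 had a log2 ratio below 0, from -0.27 to -0.02. They summed to 1028 FPKM in Tet2 KO against 1153 in WT, and Myod1 had 313 and 336 FPKM. The labelled cell type was thus seen in both groups. Endothelial markers were low, with summed levels of 3.82 FPKM in Tet2 KO against 4.28 in WT.

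The mesenchymal genes were also divided by position in the genome, a split chosen after their values were seen. Of the 22 listed, 19 were measured, with a median log2 ratio of 0.04. The only 3 that were 2-fold higher, Mmp13, Mmp3 and Mmp10, belong to the MMP cluster of chromosome 9, which also holds Mmp8 and Mmp12. The other 16 had a median log2 ratio of -0.06 and ranged from -0.63 to 0.58, with 7 above and 9 below 0, and none reached 2-fold in either direction. The split thus partly restates which genes were called, and Mmp10 was measured only through its Tet2 KO value. By label, 2 of the 3 leukocyte-type genes were called higher, with a median log2 ratio of 1.80. Of the 19 measured mesenchymal genes, 3 were called higher, with a median of 0.04. Over all genes with a mean of at least 1 FPKM, 2.08% were 2-fold higher. The leukocyte-type share rests on 3 genes, of which Mmp9 was measured only through its Tet2 KO value. Within the cluster every measured gene of either label was called, and outside it no gene of either label was. Among these genes the calls thus followed position, in a split chosen after the values were seen, and the label added no further separation.

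**Figure D3:**
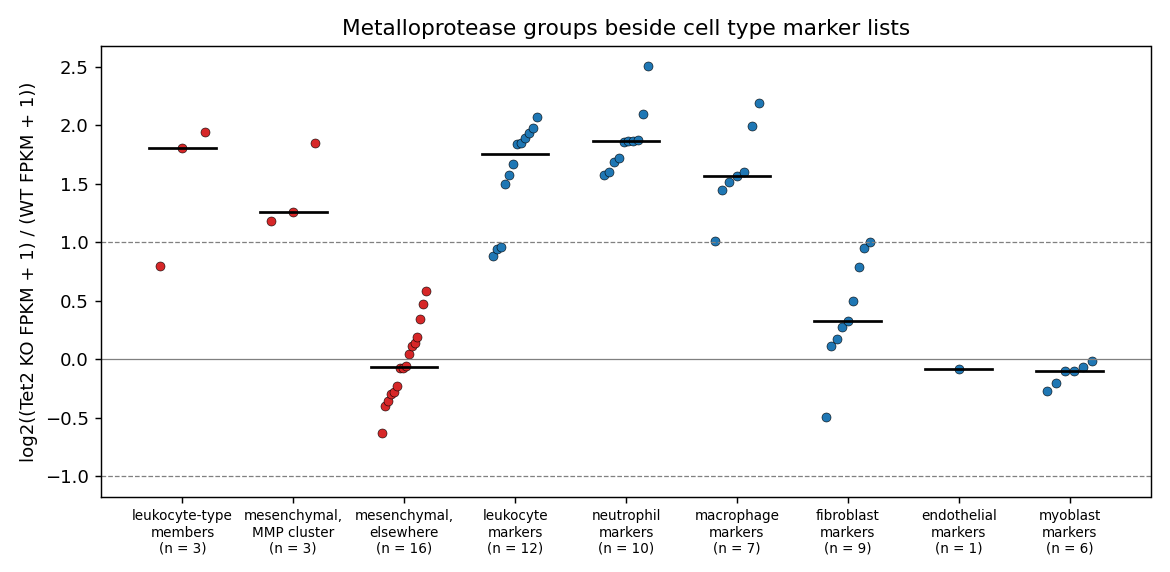
log2 ratio of each measured gene (points) and the median (bars) of the leukocyte-type members, the mesenchymal members in and outside the chromosome 9 cluster, and 6 marker lists. Dashed lines mark 2-fold differences; the median is 1.80 for the leukocyte-type members, -0.06 for mesenchymal members elsewhere and 1.86 for neutrophil markers.

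The cluster spans 427 kb of mm9, from 7272514 to 7699585 of chromosome 9, and holds 10 of the 23 MMP genes. Its order is Mmp13, Mmp12, Mmp1b, Mmp3, Mmp1a, Mmp10, Mmp8, Mmp27, Mmp20 and Mmp7. Of the 10 genes, 5 were measured and these were 2-fold higher, with log2 ratios from 1.18 to 1.94. Over all genes with a mean of at least 1 FPKM, 2.08% were 2-fold higher. At 1 to 5 FPKM, where Mmp13, Mmp3 and Mmp10 lie, the share was 4.76%. The cluster was singled out after the values were seen, so this count is not independent of the calls. Mmp10 reached a mean of 1 FPKM only through its Tet2 KO value, so its place in this count is partly set by the filter. Mmp13, a collagenase of bone, cartilage and fibroblasts, had 7.46 FPKM in Tet2 KO against 1.35 in WT. Its fold of 5.52 (counting interval 4.66 to 6.56) was the highest of the 34 measured genes. Mmp3, stromelysin 1, which cuts many matrix proteins and activates other MMPs, had 6.97 FPKM in Tet2 KO against 2.34 in WT, a fold of 2.98. Mmp10, the related stromelysin 2, had 2.40 FPKM in Tet2 KO against 0.501 in WT, a fold of 4.78 (counting interval 3.33 to 6.88) that rests on about 39 fragments in WT.

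The other 5 genes of the cluster were hardly expressed. Mmp27 had 0.185 FPKM in Tet2 KO against 0.0363 in WT, about 15 and 3 fragments, a fold of 5.09 with a counting interval from 1.44 to 27.5. Mmp1b had 0.0992 and 0.0195 FPKM, about 6 fragments and 1, with a counting interval of the fold from 0.743 to 282. Mmp1a and Mmp20 had about 1 fragment in WT and 0 in Tet2 KO, and Mmp7 was at 0 in both groups. Mmp7 and Mmp20 share 1 locus in the table, so their values are uncertain. The 6 measured genes that flank the cluster had log2 ratios from -0.15 to 0.28. The nearest measured gene on either side was Dcun1d5, with 93.1 FPKM in Tet2 KO against 90.1 in WT, or Tmem123, with 26.5 and 25.8 FPKM. None of the 6 flanking genes reached 2-fold.

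**Figure D4:**
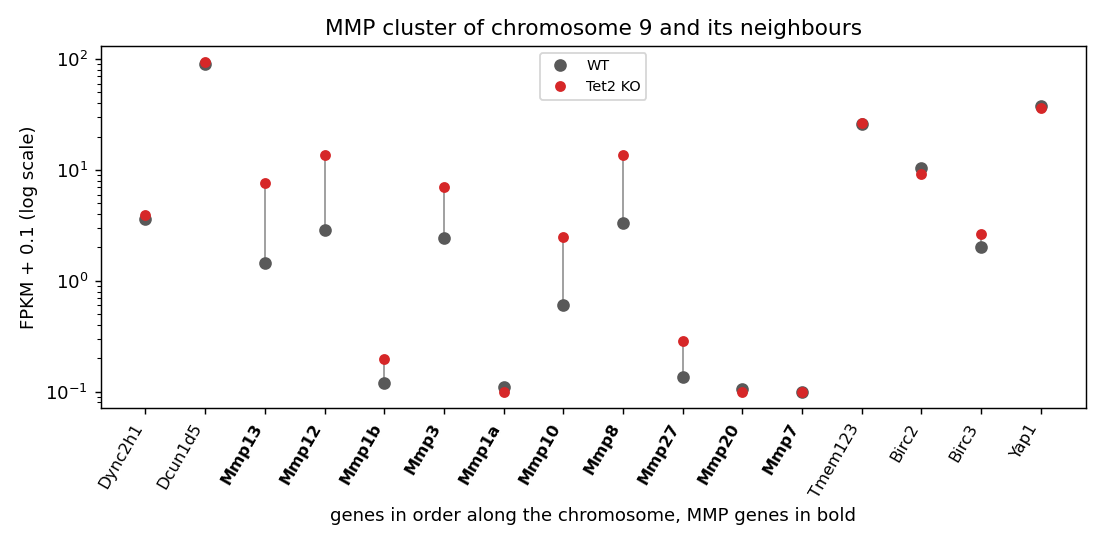
Level of each gene of the chromosome 9 MMP cluster (bold) and of its measured neighbours in their order along the chromosome, as FPKM + 0.1 on a log axis, in WT (grey) and Tet2 KO (red). Mmp13, Mmp12, Mmp3, Mmp10 and Mmp8 are higher in Tet2 KO, while the points of the neighbouring genes nearly overlap.

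Mmp3, Mmp10 and Mmp13 carry the mesenchymal label, which does not show which cells made their transcripts here. Fibroblast markers are given beside them. Of 11 such markers, 9 were measured, with a median log2 ratio of 0.32, and 1 of them, Mfap5, was 2-fold higher. Their summed level was 213 FPKM in Tet2 KO against 181 in WT, a ratio of 1.18, and Col3a1 alone made up 171 and 152 FPKM of these sums. Of the 9 measured markers, 8 had a log2 ratio above 0. Dcn was at 7.04 FPKM in Tet2 KO against 3.15 in WT, a fold of 2.23, and Col1a2 at 15.8 against 8.71, a fold of 1.81. Postn, the 1 measured marker below 0, was at 6.05 FPKM in Tet2 KO against 8.95 in WT, a fold of 0.676. The 3 MMPs amounted to 7.90% of the summed fibroblast markers in Tet2 KO and to 2.31% in WT. Set against the summed leukocyte markers they amounted to 3.37% in Tet2 KO and 3.31% in WT. The 3 genes are those mesenchymal members that were called higher, and the marker lists were chosen with earlier results known. How near the 2 shares lie therefore does not show a source. The sum also joins unlike folds, 2.98 for Mmp3, 4.78 for Mmp10 and 5.52 for Mmp13. Whether either cell type has a part in these values was not tested.

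Outside the cluster no MMP gene was called, although the FPKM of Mmp9 differed 3.15-fold without the added 1. The 7 measured genes there, which include Mmp9, had a median log2 ratio of 0.11. Mmp14, a membrane-anchored collagenase that also activates Mmp2, was the most abundant MMP in both groups. It had 23.3 FPKM in Tet2 KO against 36.6 in WT, a fold of 0.637 (counting interval 0.606 to 0.668), and its log2 ratio of -0.63 did not reach the 2-fold rule. It lay outside the central 95% of all genes of at least 20 FPKM, which ran from -0.48 to 0.37. Mmp2, the gelatinase that Mmp14 activates, had 3.27 FPKM in Tet2 KO against 1.85 in WT, a fold of 1.77. Mmp11, or stromelysin 3, had 6.05 FPKM in Tet2 KO against 7.64 in WT. Mmp15, another membrane-anchored MMP, had 9.05 and 10.2 FPKM. Mmp19 had 3.69 and 3.34 FPKM and Mmp23 2.86 and 2.50 FPKM, and the counting intervals of both folds included 1.

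The make-up of the MMP transcripts differed accordingly. Summed over all 23 genes, MMP transcripts stood at 95.5 FPKM in Tet2 KO against 74.1 in WT. The cluster made up 46.4% of this sum in Tet2 KO and 13.8% in WT. Mmp14 made up 24.4% in Tet2 KO and 49.4% in WT. Without the cluster, the sum was 51.2 FPKM in Tet2 KO against 63.8 in WT, a ratio of 0.803. Mmp14 alone, with 23.3 FPKM in Tet2 KO against 36.6 in WT, accounts for this lower sum. Of the 7 measured MMP genes outside the cluster, 4 had a log2 ratio above 0 and 3 below.

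Beside Adam8, no ADAM gene reached 2-fold. Of the 33 ADAM genes, 8 were measured, with a median log2 ratio of 0.14, and 20 were under 0.1 FPKM on average, many of them genes known from testis. Adam17, which releases tumour necrosis factor from the cell surface, was the most abundant, with 40.4 FPKM in Tet2 KO against 37.3 in WT. Adam9 had 35.0 and 33.3 FPKM. Adam10, which cuts Notch receptors, had 20.5 FPKM in Tet2 KO against 17.8 in WT, a fold of 1.15. Adam19, known from muscle and heart development, had 13.5 and 14.2 FPKM. Adam12, known from myoblast fusion and regenerating muscle, had 3.75 FPKM in Tet2 KO against 2.75 in WT, a fold of 1.36. These 5 genes had log2 ratios from -0.07 to 0.34.

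The ADAMTS genes spanned a narrow range of ratios. Of 19, 10 were measured, with log2 ratios from -0.40 to 0.25 and a median of -0.06, and 0 reached 2-fold. Adamts14, a procollagen propeptidase, had 27.6 FPKM in Tet2 KO against 23.1 in WT. Adamts4, an aggrecanase, had 21.8 and 22.7 FPKM. Adamts1, which cuts versican, had 9.25 and 8.97 FPKM. Adamts7 had 10.8 and 11.4 FPKM, and Adamts10, known from microfibrils, had 6.43 and 5.53 FPKM. Adamts5, the other main aggrecanase, had 1.06 FPKM in Tet2 KO against 1.72 in WT, a fold of 0.617 (counting interval 0.542 to 0.703). Adamts2, a propeptidase of procollagen I, had 0.869 and 1.19 FPKM, a fold of 0.731 (counting interval 0.624 to 0.854). The mesenchymal members under 1 FPKM were Mmp16, with 0.154 FPKM in Tet2 KO against 0.0764 in WT, Adamts12, with 0.955 and 0.931 FPKM, and Adamts15, with 0.00931 and 0.0449 FPKM.

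ADAMTS-like proteins resemble ADAMTS proteases but lack the protease domain and bind to microfibrils. Adamtsl2, on chromosome 2 from 26934901 to 26964133 on the plus strand, was the one measured gene of the 5 and the one member that was 2-fold lower. It had 0.813 FPKM in Tet2 KO against 2.84 in WT, about 213 and 758 fragments, a fold of 0.286 (counting interval 0.245 to 0.334). Adamtsl5 had 0.558 FPKM in Tet2 KO against 1.43 in WT, and its mean was just under 1 FPKM. Adamtsl3 had 0.705 and 0.819 FPKM and Adamtsl1 had 0.652 and 0.558 FPKM. Summed over the 5 genes, the level was 3.09 FPKM in Tet2 KO against 6.16 in WT.

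Timp1, a secreted inhibitor of most MMPs, was the most abundant of the 84 genes in both groups. It had 385 FPKM in Tet2 KO against 277 in WT, a fold of 1.39 (counting interval 1.36 to 1.42), and made up 47.7% of the summed level of all 84 genes in Tet2 KO and 41.0% in WT. Its log2 ratio of 0.47 was above the central 95% of all genes of at least 20 FPKM but did not reach the 2-fold rule. Timp2, which takes part in the activation of Mmp2 by Mmp14, had 34.8 FPKM in Tet2 KO against 44.9 in WT. Timp3, which is bound to the matrix, had 44.9 FPKM in Tet2 KO against 54.6 in WT. Timp4 was near 0, with 0.0590 and 0.0726 FPKM. Timp1 thus had the opposite sign to Timp2 and Timp3, with folds of 0.776 for Timp2 and 0.822 for Timp3. The summed level of Timp1, Timp2 and Timp3 was 4.86 times that of the MMPs in Tet2 KO and 5.08 times in WT. Timp1 lies within the antisense gene Syn1, Timp3 within Syn3 and Timp4 within Syn2, and the library kit does not keep strand. The table also gives Timp1 a locus shared with Araf, which had 25.4 FPKM in Tet2 KO against 29.5 in WT. Syn1 was at 0.463 and 0.642 FPKM and Syn3 at 0.170 and 0.157 FPKM, far below Timp1 and Timp3. Syn2, at 0.220 and 0.388 FPKM, was above Timp4. Fbxo7, on the same strand in the Timp3 locus, was at 9.57 and 10.05 FPKM.

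Of 25 genes that regulate metalloproteases, 18 were measured, with a median log2 ratio of -0.01, 9 above and 9 below 0. The 1 gene past the 2-fold rule was Serpinb2, an inhibitor of plasminogen activators, with 22.9 FPKM in Tet2 KO against 7.86 in WT. Of all genes of at least 1 FPKM, 2.08% were 2-fold higher. Without the added 1, Tfpi2 and Tspan33 also differed over 2-fold, in opposite directions. Tfpi2 had 3.22 FPKM in Tet2 KO against 1.19 in WT, a fold of 2.70. Tspan33 had 2.93 FPKM in Tet2 KO against 6.14 in WT, a fold of 0.477. Among the most abundant were Bsg, a membrane protein that induces MMPs, with 215 and 218 FPKM, and Plau, the urokinase that makes plasmin, with 103 and 70.0 FPKM. Plau had a log2 ratio of 0.56, under the 2-fold rule.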

How the data were processed

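RNA of WT and Tet2 KO primary myoblasts was sequenced, with 2 libraries per group. The authors removed adapters and poor reads, mapped read pairs to mm9 with TopHat2 2.0.13 and estimated expression with Cuffdiff 2.2.1 (versions from the submitters' processing notes). The gene annotation is not given in the sources used here. The deposited table held 1 FPKM value per gene and group, scaled and combined over libraries by the authors. It also held their log2 ratios, test statistics, p-values, q-values and calls, which were not used. Multi-mapping reads and reads of overlapping genes may be shared between related genes.

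A log2 ratio with a pseudocount of 1 was computed for genes averaging 1 FPKM or more, and a gene was called at a 2-fold difference. With 1 value per group, no test was run and no standard deviation is given. The FPKM of 1 fragment per kb was read from single-exon genes of over 600 bases, at 0.0228 in Tet2 KO and 0.0223 in WT. Of the values under 3.5 such steps, 91.2% and 91.8% lay within 0.15 of a whole multiple. Fragment counts from these steps use the longest GENCODE vM1 transcript and assume that a pooled value averages its libraries, so they are approximate. Of the 84 genes, 83 were found in that annotation. Loci are given in mm9 as deposited, but counted from 1. Promoters came from RefSeq and have their own build, GRCm38.p6.

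The members and gene lists were chosen with earlier results of these data known. Genes named are the leukocyte-type members, other members known from leukocytes, the TIMPs, the mesenchymal members with a mean of at least 1 FPKM, other such members past the 2-fold rule, the 4 most abundant genes of each family, and, of the regulators, those past the rule and the 3 most abundant, 1 of which is not reported here. Flanking genes, markers, low members of the cluster or the mesenchymal list, and the regulators Tfpi2 and Tspan33 were named after their values were seen. The split of the members by the chromosome 9 cluster was also chosen after that. Alternatives were a pseudocount of 0.1 or none, no filter, a mean of at least 5 FPKM, rescaling to TPM, centring and a 1.5-fold rule. The calculations were tested on simulated data. Scripts ran in Python 3.11.15 with scipy 1.17.1, pandas 2.3.3, numpy 2.4.6 and matplotlib 3.10.9.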

Additional observations from a re-analysis of the deposited data

How the results depend on the processing

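The 6 genes called 2-fold higher became 7 with a pseudocount of 0.1, with none, with TPM and with a 1.5-fold rule, Mmp9 being added each time, and 3 (Adam8, Mmp8 and Mmp12) at a mean of at least 5 FPKM, which leaves out the other 3 by its construction. The 1 gene called lower became 0 at that mean and 2 with the 1.5-fold rule, which adds Mmp14. The MMP median of 0.69 became 1.14 with a pseudocount of 0.1, 1.20 with none, 0.10 without a filter, -0.16 at a mean of at least 5 FPKM (5 genes) and 0.11 without the chromosome 9 cluster, the last chosen after seeing the data. The leukocyte-type median of 1.80 became 2.06 and 2.09 with a pseudocount of 0.1 and none. The ADAMTS-like value of -1.08, which is Adamtsl2 alone, became -1.69 and -1.81 with these pseudocounts, -0.15 without a filter (5 genes) and -1.30 with TPM, and could not be given at a mean of at least 5 FPKM. The mesenchymal median of 0.04 became -0.07 at a mean of at least 5 FPKM and -0.06 without the cluster. Of the 34 measured genes, 10 moved by over 0.2 in log2 ratio with a pseudocount of 0.1, 11 with none and 4 with TPM, and in no setting run did 1 change sign. No paired analysis was possible because the table holds 1 combined value per group, which also left no single library to omit.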
